A study of Mus musculus with 22 samples.

Results

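The baseline DNA methylation of the mouse embryonic forebrain was described from the 6 control samples of a series of 22. These samples were chosen by their titles alone, and the 16 samples from EtOH-exposed embryos were not used. Each control was the forebrain of 1 wild type C57BL/6 embryo collected at embryonic day 10.5 (E10.5) from a female that had received saline. The study's methods state that the 6 embryos came from 3 litters and were 3 males and 3 females, but the labels give neither for a sample, so the spread reported below is between embryos of both sexes of which some shared a litter. Calls outside the autosomes, which were not analysed, made up 1.23, 1.18 and 1.54% of all calls in controls 1 to 3 and 2.51, 2.42 and 2.70% in controls 4 to 6, and the part of sex in the spread was not tested. Rapid reduced representation bisulfite sequencing (rRRBS) was used, in which DNA is cut by MspI at CCGG sites, unmethylated cytosines are converted by bisulfite, and the fragments near those sites are sequenced, so that CpG-rich DNA is covered more than the rest of the genome.

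In mammals, DNA methylation is found mostly at CpG dinucleotides, where a cytosine is followed by a guanine. The marks inherited from sperm and oocyte are largely erased before implantation and written again around implantation by the de novo methyltransferases Dnmt3a and Dnmt3b, after which Dnmt1 and its partner Uhrf1 copy them at each cell division and the Tet enzymes can oxidise them. Most of the genome becomes methylated, CpG-rich promoters stay largely unmethylated, promoters of several germline genes are methylated in somatic cells, and imprinted control regions keep the mark of 1 parental allele.

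Methylation was expressed as the percent of cytosine calls that were methylated, in tiles of 100 bp on chromosomes 1 to 19 that had at least 2 CpGs covered by 10 or more reads per strand. Of 372173 tiles with a value in any control, 114849 had a value in at least 5 of the 6 controls and were analysed. Some of them show the range of what was measured, each 5′ to 3′ on the plus strand of GRCm38 with every CpG in capitals.

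The first is unmethylated DNA in front of Gli3, a transcription factor of Hedgehog signalling, 73 bp upstream of its transcription start site (TSS) at chr13:15463601-15463700. Its 12 CpGs gave 0.984% ± 0.498 (SD, n = 6) on 463 to 3903 calls per control, and 23 of its bases were repeat-masked.
Gli3 promoter: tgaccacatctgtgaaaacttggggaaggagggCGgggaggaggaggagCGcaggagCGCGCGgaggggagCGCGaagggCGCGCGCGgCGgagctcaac
The next lies 298 bp upstream of the TSS of the imprinted gene Mcts2, inside an intron of H13, at chr2:152686801-152686900. It was partly methylated, at 47.6% ± 17.3 (n = 6), although its 11 CpGs are nearly as dense as those of Gli3.
Mcts2 promoter: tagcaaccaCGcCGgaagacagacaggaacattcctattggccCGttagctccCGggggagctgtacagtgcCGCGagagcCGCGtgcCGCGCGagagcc
The tile at chr3:40708501-40708600, 321 bp upstream of the TSS of the germline gene Slc25a31 and chosen after its values were seen, was methylated at 96.3% ± 1.87 (n = 6), with only 2 of its 5 CpGs covered. Of its bases, 45 were repeat-masked.
Slc25a31 promoter: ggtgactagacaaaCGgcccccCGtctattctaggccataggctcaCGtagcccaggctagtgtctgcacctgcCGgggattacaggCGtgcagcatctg
A tile of 9 CpGs and 28 repeat-masked bases in an intron of the proteasome gene Psmd12, 15022 bp downstream of the TSS at chr11:107494501-107494600, was methylated at 96.7% ± 0.830 (n = 6). The capital C at its end belongs to a CpG whose G lies in the next tile.
Psmd12 intron: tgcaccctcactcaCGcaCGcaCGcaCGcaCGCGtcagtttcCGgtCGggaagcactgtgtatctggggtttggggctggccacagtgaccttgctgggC
Far from any gene, a tile of 7 CpGs without repeat-masked bases at chr8:89147101-89147200, 102988 bp upstream of the TSS of Sall1 and chosen after its values were seen, was methylated at 94.3% ± 1.93 (n = 6).
Distal tile: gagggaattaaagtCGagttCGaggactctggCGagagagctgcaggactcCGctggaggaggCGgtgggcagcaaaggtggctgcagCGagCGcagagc
Tiles of like CpG number thus differed in level, and the Gli3 and Mcts2 sequences differed in level by more than the highest SD of either.

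The libraries differed in what they covered before any comparison was made. They held 68126469 to 132488556 calls each, and 688745 (control 2) to 1349241 (control 6) CpGs passed the coverage minimum. Control 2 had no value in 35982 of the analysed tiles and control 6 had none in 31687, whereas each of the other controls lacked at most 810. The tiles that control 2 lacked had a mean level of 52.8% in the other controls, above the 40.1, 39.6, 40.2, 39.9 and 39.1% that controls 1, 3, 4, 5 and 6 had over all their analysed tiles, and the mean of control 2 was 34.4%. On the 45812 tiles measured in all 6 controls, 39.9% of those analysed, the means were 29.7, 29.9, 29.0, 29.4, 29.2 and 29.0% for controls 1 to 6, so that control 2 no longer stood apart. Controls 1 and 2 also differed from the others at tiles with hardly any methylation. Over the 33572 tiles with a median under 1%, their mean levels were 1.52 and 1.53%, against 0.623, 0.629, 0.644 and 0.588% in controls 3 to 6, and the part that conversion or alignment had in this was not tested. The results below are for tiles in at least 5 controls, and several are given again for tiles in all 6.

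Most tiles of the forebrain methylome were either unmethylated or highly methylated. Tiles under 10% made up 53.9% ± 2.93 (SD, n = 6) of those in a control, and tiles at 90 to 100% made up 25.1% ± 1.59. The share under 10% was 52.5 to 53.0% in 5 controls and 59.9% in control 2. Each class of 10 points between 20 and 60% held between 0.905 and 1.2004% of the tiles, while 3.24% ± 0.395 lay at 70 to 80% and 10.5% ± 1.52 at 80 to 90%. By their mean over the controls, 24344 tiles lay at 10 to 90%. The split held for the same tiles across embryos, since 59338 tiles (51.7%) were under 10% in every control that had a value and 18551 (16.2%) were at 90 to 100% in every one, whereas 2957 (2.57%) stayed at 30 to 70% in every one. The mean level was 38.9% ± 2.24 and the median tile 3.40%. On tiles in all 6 controls, 65.2% ± 0.0953 were under 10% and 18.9% ± 0.807 at 90 to 100%, so which tiles were covered moved these shares more than the embryos did. Single CpGs gave the same picture, with 64.4% ± 2.36 of the CpGs under 10% and 19.4% ± 1.03 at 90 to 100%.

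Methylation was lowest at transcription start sites and rose on both sides of them over the next few kb. Promoters are where RNA polymerase is loaded, and CpG-rich ones are known for being free of methylation in most tissues. Over 100 to 200 bp upstream of the nearest of 30179 curated RefSeq start sites the mean level was 2.86% ± 0.387 (n = 6; 3461 tiles). It was 2.94% ± 0.338 over the 100 bp in front of the TSS and 3.03% ± 0.327 over the 100 bp behind it. At 500 to 1000 bp the level was 13.8% ± 0.789 upstream and 7.08% ± 0.343 downstream, and at 1000 to 2000 bp it was 34.5% ± 1.34 and 23.1% ± 1.43. The sides were closer at 2000 to 5000 bp, with 51.1% ± 1.43 upstream and 49.8% ± 1.39 downstream, although the upstream side was the higher in 6 of 6 controls, and more than 100 kb from any TSS the level was 82.0% ± 0.875 and 82.1% ± 0.745. Over tiles 200 to 1000 bp from the TSS, the upstream side was higher than the downstream side by 2.57 points ± 0.257 (n = 6), from 7.35% to 4.78%, in 6 of 6 controls (exact two-sided sign-flip permutation test, p = 0.03125, which is the smallest that 6 samples can give; Benjamini-Hochberg adjusted over 10 differences, p = 0.0347). This test, here and below, measures agreement between embryos, which are taken as independent although some shared a litter. It does not cover the choice of tiles, most of which the embryos share. The difference was 1.46 points on tiles in all 6 controls, 1.33 points with at least 3 CpGs per tile, 1.54 points with the CpGs of CCGG sites left out and 5.81 points with predicted RefSeq transcripts included. At 200 to 500 bp tiles had a mean of 8.52 CpGs upstream and 9.92 downstream. At 500 to 1000 bp they had 7.20 and 8.28, and the part of CpG number in the difference was not tested.

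**Figure D1:**
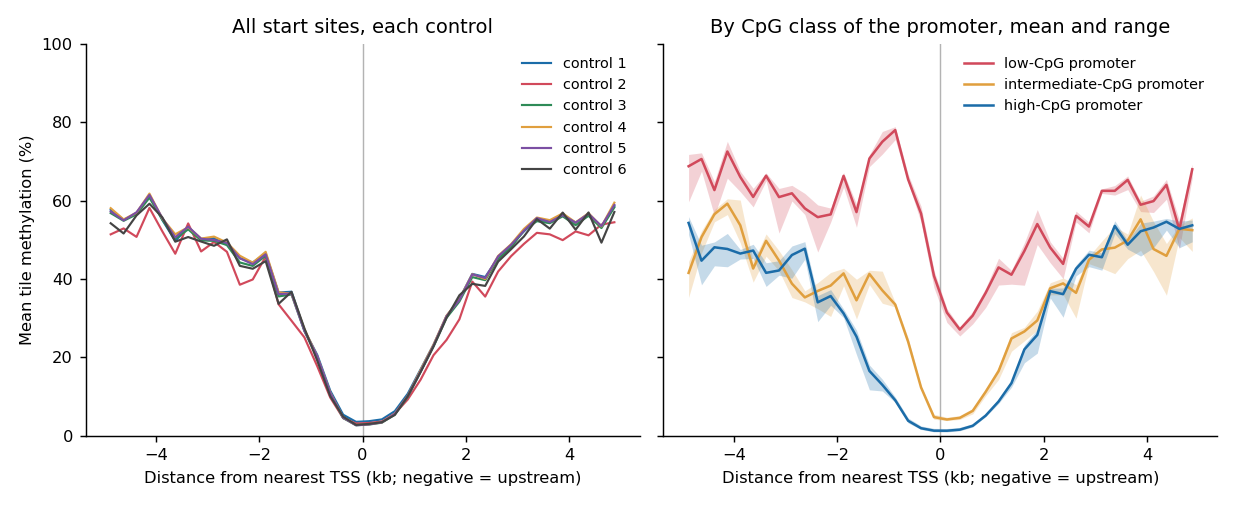
Mean tile methylation (percent, vertical axis) against the distance to the nearest TSS (kb, horizontal axis) in bins of 250 bp. The left panel has a line for each of the 6 controls, and the right panel has the mean over the controls (line) and their range (shading) for promoters of 3 CpG classes. All 6 lines fall to about 3% at the TSS, from 2.68 to 3.72% in the nearest bins, and only the low-CpG class stays above 25% there.

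The depth and the width of this valley differed with the CpG content of the promoter. Promoters were put in 3 classes by their GC content and their CpG number relative to that expected from their bases. High-CpG promoters, the class of most housekeeping and developmental genes, had a mean level of 1.79% ± 0.412 (n = 6; 20940 tiles), and 98.4% of their tiles were under 10%. Intermediate promoters had 6.50% ± 0.345 (5432 tiles) and low-CpG promoters 43.3% ± 1.84 (799 tiles), of which 36.5% were under 10%. The low class exceeded the intermediate class by 36.8 points ± 1.94 and the intermediate class exceeded the high class by 4.71 points ± 0.173, each in 6 of 6 controls (exact sign-flip permutation test, p = 0.03125; adjusted p = 0.0347). The class means did not overlap between embryos, as the lowest control had 39.6% in the low class and the highest had 7.10% in the intermediate class. In bins of 250 bp, tiles near high-CpG promoters first passed 10% in the bin that starts 1000 bp upstream and in that which starts 1250 bp downstream of the TSS in all 6 controls, and those near intermediate promoters at 250 and 750 bp. On tiles in all 6 controls low-CpG promoters had 38.6% ± 0.324 (260 tiles) and exceeded the intermediate class by 32.9 points. The difference between the intermediate and high classes was 7.46 points with predicted transcripts included. Low-CpG promoters were not lowest at the TSS, with 40.8% ± 1.58 just upstream, 31.5% ± 1.30 just downstream and 27.1% ± 0.870 at 250 to 500 bp downstream.

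The gene feature in which a tile lay ordered the levels as the distance to a TSS did. Promoter tiles, taken from 1000 bp before to 100 bp after a TSS, had 4.55, 3.88, 3.69, 3.80 and 3.75% in controls 1 to 5 and 3.78% in control 6. Their mean was 3.91% ± 0.322 over 27171 tiles, and 95.1% of them were under 10%. Tiles of 5′ UTRs were as low, at 2.99% ± 0.328 (5385 tiles). Coding exons had 44.6% ± 1.74 (17054 tiles), introns 44.9% ± 2.42 (33196 tiles) and 3′ UTRs 58.7% ± 1.32 (1275 tiles). Intergenic DNA had the highest level, at 69.8% ± 1.11 (28184 tiles), ranging from 68.1 to 70.9% among the controls, and 48.0% of its tiles were at 90 to 100%. It exceeded promoters by 65.9 points ± 1.11 in 6 of 6 controls (exact sign-flip permutation test, p = 0.03125; adjusted p = 0.0347), and by 60.1 points on tiles in all 6 controls. Within intergenic DNA the level rose from 47.8% ± 1.69 under 10 kb from a TSS to 68.7% ± 1.03 at 10 to 50 kb and 80.01% ± 0.813 beyond. On tiles in all 6 controls these levels were 39.1% ± 0.366, 62.99% ± 0.349 and 75.7% ± 0.421.

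**Figure D2:**
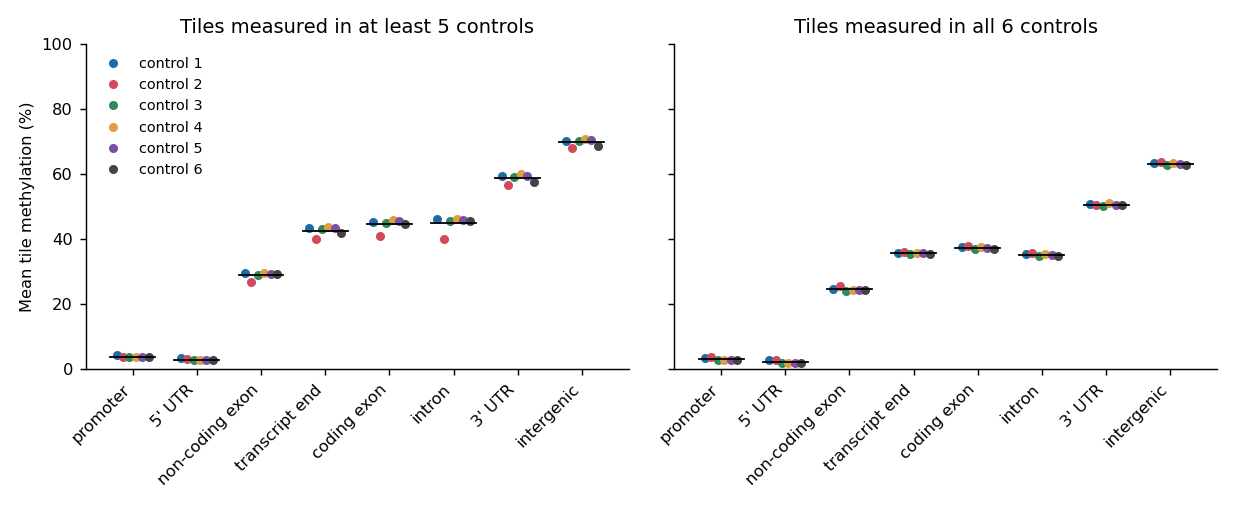
Mean tile methylation (percent, vertical axis) in 8 gene features, with a point for each of the 6 controls and a bar at their mean. On tiles measured in at least 5 controls (left), control 2 is the lowest in coding exons (41.1%) and introns (39.97%), and on tiles measured in all 6 controls (right) it joins the others.

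Whether introns or coding exons were more methylated depended on which tiles were compared. Taken whole, introns exceeded coding exons by 0.324 points ± 0.745 (n = 6; exact sign-flip permutation test, p = 0.375; adjusted p = 0.375), being higher in 5 controls and lower by 1.15 points in control 2, so no difference beyond the spread was found. On tiles in all 6 controls, introns were lower, at 35.3% ± 0.357 against 37.4% ± 0.275, by 2.08 points in 6 of 6 controls (p = 0.03125, exact). With predicted transcripts included, introns were higher by 5.61 points in 6 of 6 controls (p = 0.03125, exact). Both features joined low DNA near a TSS with high DNA further away. Coding exons had 11.9% ± 0.673 within 2 kb of a TSS and 71.6% ± 1.16 beyond, and introns had 6.59% ± 0.448 and 73.7% ± 0.918. Among tiles at least 2 kb away and with 2 to 4 CpGs, a comparison chosen after seeing the data, introns had 79.0% ± 0.434 and coding exons 84.7% ± 0.380, a difference of 5.75 points in 6 of 6 controls (exact, unadjusted p = 0.03125). The position of an intron in its gene went with larger differences. First introns of coding genes had 20.1% ± 1.54 (16253 tiles) and later introns 73.5% ± 1.03 (14161 tiles), a difference of 53.4 points ± 0.6998 in 6 of 6 controls (exact, p = 0.03125; adjusted p = 0.0347). At 5 to 50 kb from a TSS and with 2 to 4 CpGs, also chosen after seeing the data, the difference was 5.79 points ± 0.112, with 75.8% ± 0.417 in first and 81.6% ± 0.4003 in later introns.

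The more CpGs tiles held, the lower was their mean level. Methylated cytosine mutates easily to thymine, and DNA that is methylated in germ cells has lost CpGs over evolution, so CpG-rich DNA is known to mark regions that escape methylation. Tiles with 2 CpGs in the reference had 74.9% ± 0.459 (n = 6; 11694 tiles), tiles with 5 had 53.8% ± 1.27, tiles with 8 had 20.4% ± 1.06, and tiles with 12 or more had 1.80% ± 0.395 (19688 tiles). The fall had no plateau between these numbers, and the controls ranged from 39.5 to 43.0% at 6 CpGs. Tiles with 2 or 3 CpGs exceeded those with 8 or more by 65.0 points ± 0.489 in 6 of 6 controls (exact sign-flip permutation test, p = 0.03125; adjusted p = 0.0347).

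CpG number and gene feature did not replace each other. With 2 to 4 CpGs, promoter tiles had 17.2% ± 0.349 and intergenic tiles 76.8% ± 0.557, a difference of 59.6 points ± 0.521. With 8 or more CpGs, promoter tiles had 1.41% ± 0.441 and intergenic tiles 36.8% ± 1.54, a difference of 35.4 points ± 1.66, which was 27.3 points on tiles in all 6 controls. In this open class promoter tiles had a mean of 12.2 CpGs and intergenic tiles 10.4, so CpG number was not held equal there. Both differences had the same sign in 6 of 6 controls (exact sign-flip permutation test, p = 0.03125; adjusted p = 0.0347). Coding exons fell from 79.0% ± 0.553 with 2 to 4 CpGs to 10.9% ± 0.318 with 8 or more, and introns from 68.9% ± 0.588 to 6.05% ± 0.347. CpG-dense intergenic tiles were themselves divided, with 55.3% of them under 10% and 29.0% at 90 to 100%. Their level went with repeats, which are mobile elements and simple sequences that the reference marks by masking. CpG-dense intergenic tiles with no masked base had 11.97% ± 0.394 (1994 tiles), while those with at least 50 masked bases had 90.5% ± 0.801 (1145 tiles). The former had a mean of 11.2 CpGs and the latter 8.63, so CpG number differed as well. Among tiles without a masked base, a choice made after seeing the data, dense intergenic tiles exceeded dense promoter tiles by 10.5 points ± 0.475. These intergenic tiles had a mean of 11.2 CpGs and these promoter tiles 12.1, and the part of CpG number in the difference was not tested. Over all features, tiles with at least 50 masked bases had 87.8% ± 0.559 and a mean of 4.72 CpGs, and tiles with none had 30.3% ± 1.90 and 7.59 CpGs. Among tiles with 2 to 4 CpGs the levels were closer, at 88.2% ± 0.544 and 64.2% ± 0.671. In coding exons masked tiles were the lower ones in 6 of 6 controls, with 31.9% ± 4.08 (45 tiles, with a mean of 8.89 CpGs) against 44.6% ± 1.68 (7.58 CpGs). With 8 or more CpGs, coding exon tiles had 12.5% ± 0.959 when masked (24 tiles) and 11.4% ± 0.319 when not, and the masked ones were higher in 5 of 6 controls. Promoter tiles with many masked bases were higher, with 17.5% ± 1.19 for at least 50 masked bases (372 tiles) and 3.65% ± 0.329 for none, but the 128 of them with at least 50 masked bases and 8 or more CpGs had 1.78% ± 0.551. Reads from repeats can be placed at more than 1 copy, and whether values of masked tiles mix several loci was not tested. The deepest methylated intergenic tile, 1198593 bp from the TSS of Lrrc4c, had 46 masked bases, up to 195139 calls in a control and 92.5% ± 2.52.

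**Figure D3:**
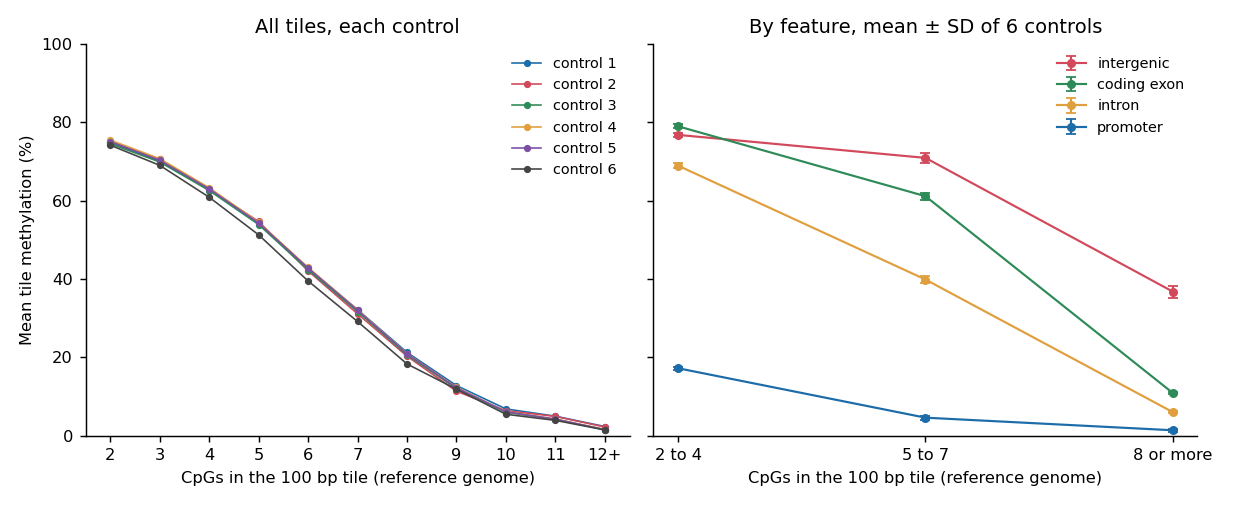
Mean tile methylation (percent, vertical axis) against the number of CpGs that the reference genome has in the tile (horizontal axis), as a line per control over all tiles (left) and as the mean ± SD of the 6 controls in 4 features (right). The lines fall from 74.2 to 75.5% with 2 CpGs to 1.49 to 2.37% with 12 or more, and promoter tiles lie lowest in each class of CpG number.

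Neighbouring CpGs had like levels. In a control, the levels of adjacent CpGs 2 to 5 bp apart differed by 2.25 points ± 0.326 on average (n = 6). The mean difference was 8.83 points ± 0.689 at 50 to 100 bp and 19.7 points ± 0.936 at 500 to 1000 bp. Across pairs of CpGs, which share reads when they are close, Pearson's r was 0.979 to 0.989 at 2 to 5 bp in the 6 controls and 0.654 to 0.717 at 500 to 1000 bp. Pairs in opposite states were 0.0239% of pairs at 2 to 5 bp and 7.13% at 500 to 1000 bp. Within tiles that held both kinds, CpGs of CCGG sites, where MspI cuts, were higher than the other CpGs by 0.475 to 1.51 points in the 6 controls (mean of other minus CCGG CpGs, -1.08 points; exact, p = 0.03125; adjusted p = 0.0347).

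Between embryos, tiles of intermediate level differed the most. With calls taken as independent, the 95% Wilson interval of a tile at 50% was computed at 2 depths. It runs from 42.2 to 57.8% with 156 calls, the median of control 6. With 539 calls, the median of control 5, it runs from 45.7 to 54.1%. The median SD of a tile over the controls was 1.27 points, against 1.13 points expected from counting independent calls. As a root mean square over all tiles the SD was 3.16 points, of whose variance such counting made up 40.8%, which left 2.43 points. A read gives a call at each CpG it covers, and the median tile had 4 covered CpGs in each control. Where calls of a read agree, the intervals and counting values given here are too small, and the SD left is too large. By how much was not tested. The range over the controls was under 5 points in 63.4% of tiles and at least 20 points in 2.999%. Tiles at 20 to 80% had a median SD of 5.50 points (10262 tiles), and counting made up 31.1% of their variance. At 40 to 50% the SD left after counting was largest, at 6.95 points, while it was 0.437 points at 0 to 1% and 1.75 points at 90 to 99%. For deeper tiles, 220 tiles at 20 to 80% had 300 to 1000 calls in their lowest control. Their SD left was 6.26 points, and counting of calls as independent made up 7.09% of the variance. Over all tiles at 20 to 80% the SD left ranged by feature from 5.50 points in non-coding exons (82 tiles) to 6.90 points in 5′ UTRs (73 tiles). It was 5.92 points in introns (3664 tiles), 6.01 points in intergenic DNA (3912 tiles), 6.14 points in promoters (549 tiles) and 6.60 points in coding exons (1527 tiles). PCR duplicates cannot be recognised in such values, so the SD left also includes any that the libraries held.

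**Figure D4:**
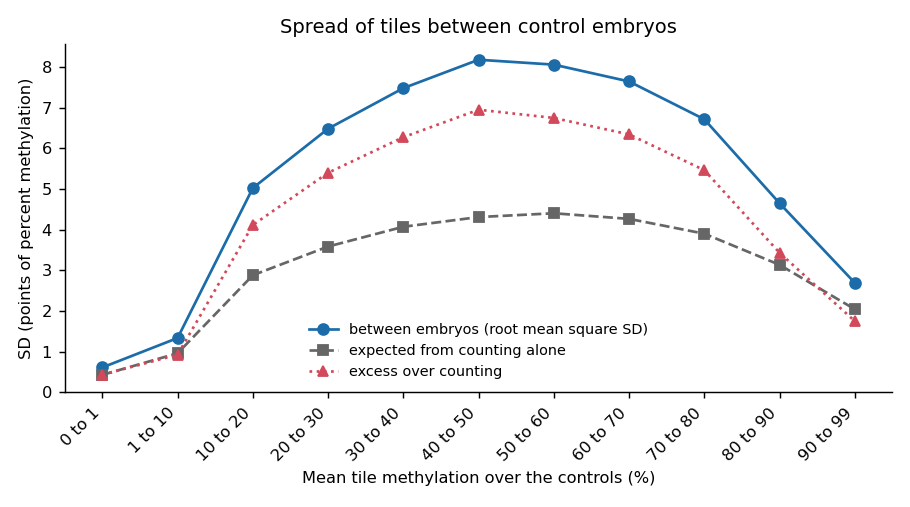
SD between the 6 controls (points of percent methylation, vertical axis) for tiles grouped by their mean level (percent, horizontal axis), as the root mean square over tiles, with the SD expected from counting and the SD left after it. With calls taken as independent, which those of a shared read are not, the excess over counting is largest at 40 to 50%, at 6.95 points.

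By pairs of embryos, controls 3, 4 and 5 were nearest to each other. As a root mean square, the difference was lowest between controls 4 and 5, at 3.20 points on 113866 tiles, where counting gives 2.27 points. It was highest between controls 1 and 6, at 5.88 points, where counting gives 3.69 points. On the tiles in all 6 controls, controls 4 and 5 were again the nearest, at 2.49 points, and the furthest were controls 2 and 6, at 5.76 points, followed by controls 1 and 6, at 4.82 points. Every pair differed by more than counting gives when calls are taken as independent, and a comparison with reads as the unit was not made. At tiles of 20 to 80% the widest pair was controls 2 and 6, at 15.9 points, against 7.21 points for controls 4 and 5. Across tiles, which are not independent, Pearson's r was 0.990 to 0.997 and Spearman's rho 0.751 to 0.883 over the 15 pairs.

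Genes with known roles were then read at their promoters. Of 24963 genes, 10811 had at least 1 analysed promoter tile, and 92.1% of these had a mean promoter level under 10% and 4.40% had 50% or more. The forebrain and neural progenitor list, of transcription factors and progenitor proteins, had a promoter tile for 10 of 15 genes. All 10 were under 10%, with a median of 1.06%, from Sox2, a factor of neural stem cells, at 0.680% ± 0.347 (n = 5) to Pax6, a regulator of the dorsal forebrain and eye, at 2.14%. This low level was not particular to forebrain genes, as the 6 of 10 genes used in every cell with a tile were also under 10%, with a median of 1.11%. All 7 methylation enzymes had tiles and lay between 0.406% (Dnmt3b) and 1.18% (Tet1). Only 1 of the 15 genes of other tissues had a tile, so promoter methylation could not be used here to check the labelled tissue. That gene was Mbp, a myelin protein, which had tiles at separate start sites, 2 of them at 1.91 and 10.7% and the third at 86.9% ± 3.66.

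Germline promoters were methylated despite being rich in CpGs. Of 12 germline genes, 7 had a promoter tile, and all 7 were at 50% or more. Of these, 6 were in the high-CpG class, in which 41 of 7792 genes reached that level. The list was chosen with earlier results of these data known, so these counts are a description and not a test. Dazl, an RNA-binding protein of germ cells, had 95.7% ± 1.25 (n = 5), with 93.7 to 96.9% in controls 1 to 5. Tex101 had 95.3% ± 1.06 (n = 6), and Sycp1, a protein of the synaptonemal complex, and Hormad1, a protein of the meiotic chromosome axis, had 91.4% and 89.3%. Slc25a31, a germ cell ATP carrier whose tile is printed above, had 93.5%, with every control above 91%. Ddx4, an RNA helicase of germ cells, was lower and spread wider, with 55.9, 46.8, 61.1, 75.7 and 77.4% in controls 1 to 5. Mael, a transposon-silencing factor, had 82.6 to 90.1% in controls 1 to 4, 80.3% in control 5 and 62.4% in control 6. These values are from the tile that all 6 shared, which had as few as 109 calls in a control. Among high-CpG promoters with at least 3 tiles, the 5 most methylated included Slc25a31, Mael and Hsf5 (83.6%), a heat shock factor, together with the neighbouring genes 3110070M22Rik (91.7%) and Tmem267 (72.6%), whose promoter tiles overlap.

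The promoter tiles of pluripotency genes differed in level. Only 3 of 10 had a promoter tile. Dppa2 had 90.5% ± 2.84 (n = 6) and Zfp42 had 89.5% ± 2.60 (n = 5), both being genes of early embryos and embryonic stem cells. Each value comes from a single tile of 2 CpGs, with as few as 43 calls in a control at Dppa2 and 53 at Zfp42. The Zfp42 tile lay 841 bp upstream of the TSS. Pou5f1, which encodes the pluripotency factor Oct4, had 0, 6.69, 10.2, 13.1 and 10.3% in controls 1, 3, 4, 5 and 6. These values come from a single tile of 3 CpGs, 657 bp upstream of the nearest curated TSS. No other promoter tile of Pou5f1 was analysed, so any other start site it has was not read. The low-CpG class holds Dppa2 and Pou5f1, and 53.0% of its 468 genes were at 50% or more.

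Imprinted promoters mostly lay between the extremes. Of 16 genes, 10 had a promoter tile, with a median of 46.0%, and 7 of them were at 10 to 50%. H19, a maternally expressed non-coding RNA, had 31.5% ± 3.19 (n = 5), and Mest, a paternally expressed hydrolase, had 24.4% ± 4.09 (n = 5). Peg10 and Peg13 had 56.97% ± 6.25 and 56.96% ± 7.08 (n = 5 each), and Snrpn, a splicing protein of the imprinted locus of that name, had 34.7% ± 7.87 (n = 5). Grb10, a signalling adaptor with several promoters, was at 1.17% in 6 tiles around its start site. In the 4 promoter tiles of Mcts2, controls 1 to 6 had 48.0, 74.4, 33.8, 38.4, 45.2 and 32.3%, so that control 2 was far above the other 5. Control 2 was the highest at Zrsr1 as well, with 75.8% in the tile that all 6 shared. Control 1 had 58.0% there and the other controls 43.9 to 45.9%, and the tile had as few as 161 calls in a control. In the adjacent Zrsr1 tile, which had no value in control 2, control 1 was the lowest, at 25.5% against 31.2 to 42.7% in controls 3 to 6. Inpp5f had 76.2% in control 1 and 36.1 to 44.7% in controls 3 to 6, in a tile with as few as 80 calls in a control. Plagl1 had 47.2 to 56.1% in controls 1 to 5 and 21.4% in control 6, on as few as 56 calls. Control 3 was the lowest of the 5 controls with a value at Mest (17.4%, against 24.7 to 27.8%), Snrpn (21.6%, against 33.0 to 39.9%) and Peg13 (45.8%, against 54.3 to 63.0%). The control furthest from the others thus varied between loci, and the part of coverage in this was not tested. In the Mcts2 tile printed above, the 8 CpGs measured in all 6 controls had mean levels of 46.1 to 50.9%, and control 2 had 35 reads at 7 of them. A level between 0 and 100% in these bulk samples cannot tell apart methylation of 1 allele in every cell from methylation of both alleles in some cells.

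**Figure D5:**
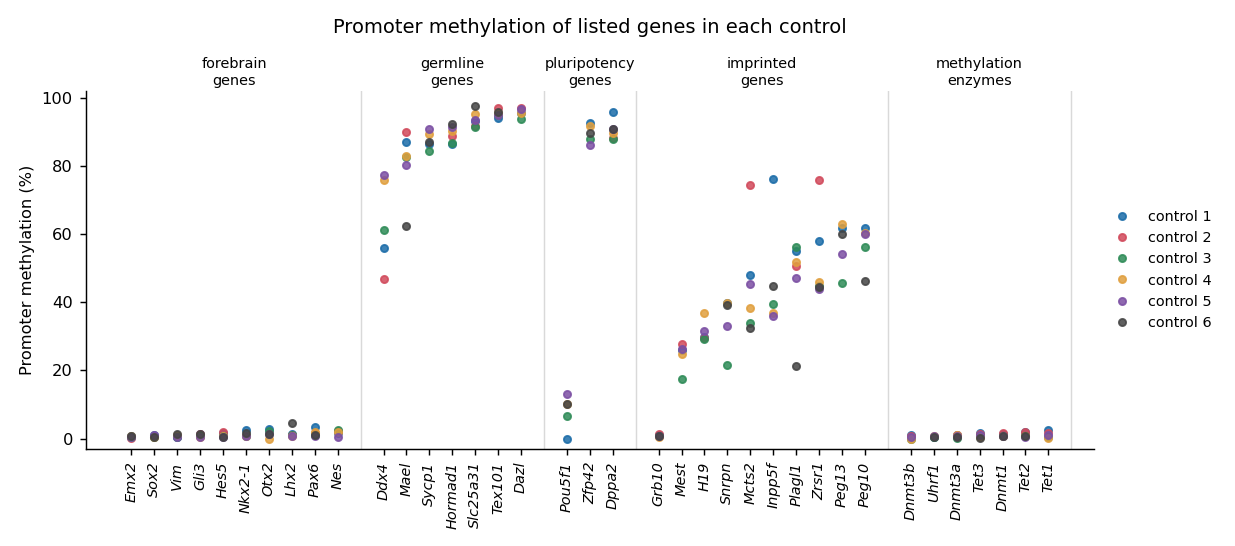
Promoter methylation (percent, vertical axis) of the listed genes with a promoter tile (horizontal axis), with a point for each control, over tiles that the same controls shared. Forebrain genes and methylation enzymes lie under 5% in every control, germline genes lie above 46%, and imprinted genes other than Grb10 spread from 17.4 to 76.2%.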

How the data were processed

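Values came from 6 control rRRBS libraries of E10.5 forebrain, 1 embryo each. The authors trimmed reads with Trim Galore 0.3.3 and aligned them to mm10 with BSMAP 2.90. The deposited counts are reads covering each cytosine of a CpG by strand, with no minimum, and the deposited percent values are the shares of methylated and unmethylated reads. Methylated reads were taken as the count multiplied by the percent, rounded. All 13813164 positions lay at a CpG of GRCm38. Sex chromosomes were left out.

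CpGs were kept on a strand with at least 10 reads and strands were added up. The level of a tile is its methylated over its total calls, averaged over tiles per control. Where the tiles of a gene were measured in different controls, values per control are over shared tiles. Curated RefSeq transcripts gave the annotation, and a promoter ran from 1000 bp before to 100 bp after a TSS. High-CpG promoters had a 500 bp window with an observed to expected ratio over 0.75 and GC over 55%, and low-CpG ones none over 0.48. The 10 differences were tested over embryos with exact sign-flip permutation tests over 64 patterns and Benjamini-Hochberg adjustment. Embryos were taken as independent, although some shared a litter. Tests of the alternatives named as chosen after seeing the data are unadjusted. Named genes were those of 7 lists, with the 5 most methylated high-CpG promoters of at least 3 tiles. The differences, lists and alternatives were chosen with earlier results of these data known. Wilson intervals and the counting SD cover only the counting error of independent calls. Calls can share a read, and PCR duplicates cannot be recognised. The code of the tests was also checked on simulated data with known answers. For the spread, the simulated calls were independent, so that check does not cover calls that share a read. Alternatives changed the coverage minimum, CpGs and controls per tile, weighting, CCGG and deepest CpGs, the annotation, the promoter and the controls used. Python 3.11.15, numpy 2.4.6, pandas 2.3.3 and matplotlib 3.10.9 were used.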

Additional observations from a re-analysis of the deposited data

Results flagged for a closer look

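Among 75 sets of 6 or 5 values, 17 had a lowest or highest control separated from the rest by more than Dixon's 95% critical value. Chance flags about 1 in 20 only for independent sets of normal values of like precision. Many of these sets shared tiles and the controls differed in depth, so the count of 17 is a description and cannot be set against that rate. Of the 17 values, 9 belonged to control 2, 5 to control 1 and 3 to control 6, and none to controls 3, 4 or 5.

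Control 2 had the lowest mean tile level (34.4%), the highest share of tiles under 10% (59.9%) and the lowest mean CpG level (26.6%, against 30.04 to 31.9% in the others). It also had the lowest levels in coding exons (41.1%), introns (39.97%) and non-coding exons (26.8%), the lowest difference between introns and coding exons (-1.15 points) and the lowest difference between low-CpG and intermediate promoters (33.0 points, against 37.0 to 38.2). None of the feature levels of control 2 stood apart on tiles measured in all 6 controls. Control 1 had the highest level in promoters (4.55%) and 5′ UTRs (3.62%), but on tiles measured in all 6 controls it had 3.64 and 2.87% there and control 2 had 3.69 and 2.88%, against 2.77 to 2.84% and 1.995 to 2.08% in the other controls.

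Of the 44 promoters of the gene lists, 7 had a control that stood apart. Control 1 was the highest at Polr2a (2.19%), Dppa2 (95.8%) and Inpp5f (76.2%, on as few as 80 calls). Control 2 was the highest at Mcts2 (74.4%). Control 6 was the highest at Lhx2 (4.44%, on as few as 45 calls). It was the lowest at Mael (62.4%, on as few as 109 calls) and Plagl1 (21.4%, on as few as 56 calls).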

How the results depend on the processing

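The 10 differences, apart from introns against coding exons, kept their direction in 6 of 6 controls and their side of the threshold under every alternative run with 6 controls. Introns minus coding exons became -0.0387 points at 20 reads, -4.08 with at least 3 CpGs per tile, -2.08 on tiles in all 6 controls, -0.0324 with the minimum on both strands added up, -2.98 without CCGG CpGs and -5.75 at least 2 kb from a TSS with 2 to 4 CpGs, and 5.61 with predicted transcripts. It passed the threshold with predicted transcripts in 1 direction and, in the other, with at least 3 CpGs, on tiles in all 6 controls, without CCGG CpGs and, unadjusted, at least 2 kb from a TSS with 2 to 4 CpGs.

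The overall values moved with the tiles covered. The mean tile level was 41.9% at 5 reads, 34.3% at 20 reads, 29.4% both with at least 3 CpGs and on tiles in all 6 controls, 44.4% with at least 3 controls and 31.6% without CCGG CpGs. The share of tiles under 10% was 50.2, 59.5, 65.7, 65.2, 47.6 and 62.8% under these alternatives in the same order, the share at 90 to 100% was 26.9, 22.4, 20.1, 18.9, 28.8 and 21.0%, and the median SD of a tile was 1.57, 0.9986, 0.876, 0.951, 1.58 and 0.951 points. The mean CpG level was 31.9% at 5 reads, 27.3% at 20 reads and 24.0% without CCGG CpGs. The level at unmethylated tiles moved by less than its SD throughout.

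With 1 control left out, tiles needed a value in all 5 others and the smallest p was 0.0625, so no test could pass. The lowest and highest values were then 29.3 and 39.6% for the mean tile level, 52.8 and 65.3% for the share under 10%, 18.6 and 24.99% for the share at 90 to 100%, 25.3 and 32.1% for the mean CpG level, 0.891 and 1.197 points for the median SD, and 0.848 and 0.962% for unmethylated tiles. In points, they were 59.9 and 65.4 for intergenic minus promoter tiles, -2.24 and 1.25 for introns minus coding exons, 64.9 and 65.7 for CpG-poor minus CpG-dense tiles, 1.41 and 2.52 for upstream minus downstream of the TSS, 52.8 and 54.9 for later minus first introns, 58.8 and 59.97 for CpG-poor and 27.0 and 33.8 for CpG-dense intergenic minus promoter tiles, -1.31 and -0.853 for other minus CCGG CpGs, 32.7 and 38.4 for low minus intermediate promoters and 3.96 and 4.67 for intermediate minus high promoters. Without control 1, 3, 4 or 5, upstream minus downstream was 1.41 to 1.45 points. Without control 2 the set held 81794 tiles, and introns exceeded coding exons by 1.25 points.

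No paired analysis was possible because only 1 group was used and the replicate numbers only number its embryos; the 10 differences compared tile classes within each embryo. rRRBS covered 2498706 of 20383623 autosomal CpGs, mostly in CpG-rich DNA, so the means describe covered tiles and not the genome. Tiles with few calls limit single values: 5 of 15 forebrain and 14 of 15 other-tissue promoters had no tile.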
